A study of Mus musculus with 9 samples.

Results

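The genes described here encode the proteins that take glucose into a cell, break it down to pyruvate, turn pyruvate into lactate and carry lactate across the plasma membrane, together with the pyruvate dehydrogenase complex and the kinases that switch it off. They were chosen by symbol and comprised 34 of the 25239 genes in the deposited tables, each listed in all 9 libraries on a single row. The libraries were made from poly(A)-selected RNA of whole retinas at postnatal day 42 (P42) from C57BL/6J mice, and each held a pair of retinas; p-values measure only the spread between these libraries. The study asked whether a knock-in allele that drives an inducible Cre recombinase in retinal ganglion cells (RGCs) disturbs the retina, and compared 3 genotypes with 3 libraries each. The +/+ retinas carried no knock-in. The Cre/+ retinas carried 1 copy of Rbpms-CreERT2, in which a P2A self-cleaving peptide and CreERT2 follow the last codons of the endogenous gene for RBPMS, an RNA-binding protein that marks RGCs. The Cre/Cre retinas carried the insertion on both copies. CreERT2 is driven by the endogenous Rbpms locus, so that in the retina it is made in RGCs, a small minority of retinal cells, and no other transgene or treatment is named for these 9 libraries.

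Glycolysis splits glucose in the cytosol and yields ATP without oxygen. Hexokinase traps glucose as glucose-6-phosphate, phosphofructokinase commits it to the pathway, and the later steps from GAPDH to pyruvate kinase return ATP and pyruvate. Pyruvate then has a choice of fates: lactate dehydrogenase reduces it to lactate, or pyruvate dehydrogenase feeds it into the mitochondria, a gate that the PDK kinases close. The mammalian retina is known for making much lactate even when oxygen is plentiful, a habit of its photoreceptors, and lactate moves between photoreceptors, Müller glia and the pigment epithelium through monocarboxylate transporters that need basigin as a chaperone.

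Genes of this pathway are textbook targets of the hypoxia-inducible factors, which bind the core ACGTG or GCGTG in DNA. Promoters of 31 of the 34 members were found in RefSeq (GRCm38.p6), as 47 windows of 300 bases that run from 250 bases before a transcription start to 50 after it. The core, read on both strands, was present in 36 of the 47 windows (76.6%), against 43.8% of 32851 mouse promoters of the same length. Member promoters were also richer in G and C, with a median of 61.0% against 52.7% over all promoters, and a motif made of these letters is met more often in such sequence. TAATCC, the core read by the photoreceptor factor CRX, was present in 4 of the 47 windows (8.51%) against 7.06% of all promoters. A TATAAA box on the gene's own strand was found in 1 of the 47 (2.13%), that of Slc2a1, against 8.32% of all promoters. The windows below are shown because Ldha held the most core matches of any member promoter (7, counting both strands of the palindrome CACGTG), and because Gapdh and Slc16a3 were the members with the smallest p-values when Cre/+ was compared with +/+. Sequences read 5′ to 3′ on the gene's strand, and capitals mark the core ACGTG or GCGTG or its reverse complement.
Ldha, chr7:46845554-46845853 (+): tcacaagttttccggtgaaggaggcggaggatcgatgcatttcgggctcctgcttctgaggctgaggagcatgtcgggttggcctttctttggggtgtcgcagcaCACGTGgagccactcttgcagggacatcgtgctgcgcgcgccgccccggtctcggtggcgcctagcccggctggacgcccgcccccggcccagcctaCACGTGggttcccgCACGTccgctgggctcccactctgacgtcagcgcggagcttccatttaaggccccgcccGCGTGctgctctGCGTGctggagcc
Gapdh, chr6:125165724-125166023 (-): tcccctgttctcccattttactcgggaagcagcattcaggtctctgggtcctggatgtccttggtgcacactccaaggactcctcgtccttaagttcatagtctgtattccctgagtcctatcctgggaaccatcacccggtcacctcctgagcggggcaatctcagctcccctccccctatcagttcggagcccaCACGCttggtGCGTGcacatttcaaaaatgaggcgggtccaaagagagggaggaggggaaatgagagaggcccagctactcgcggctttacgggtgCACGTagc
Slc16a3, chr11:120948817-120949116 (+): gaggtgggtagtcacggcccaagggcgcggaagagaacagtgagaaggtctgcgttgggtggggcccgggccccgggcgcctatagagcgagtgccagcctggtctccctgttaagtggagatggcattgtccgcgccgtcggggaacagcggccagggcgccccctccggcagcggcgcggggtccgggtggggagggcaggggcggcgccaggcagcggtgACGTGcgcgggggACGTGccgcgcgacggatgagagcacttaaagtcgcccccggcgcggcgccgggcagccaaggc

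In the Ldha window the capitals fell mainly in the 3′ part, close to the start site, and the same was so for the 3 matches of Gapdh and the 2 of Slc16a3. Hk1 and Slc16a1 each had a promoter with 5 matches, whereas the promoters of Gpi1, Dlat, Eno2, Tpi1 and Slc16a8 held none. These matches describe the letters of the windows, and binding was not measured.

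Levels are given as TPM, a measure of transcript abundance corrected for transcript length and scaled to the same total in every library, so that genes can be compared with each other. Aligned sequence, read from the ratio of coverage to FPKM, came to 4.05 to 4.65 gigabases per library. Library Cre/Cre 1 stood apart: the ribosomal RNA precursor Rn45s, which has no poly(A) tail, took 9.21% of its TPM, against 0.0827 to 0.336% in the other 8, and its median gene stood at 0.917 of the series' reference, against 0.985 to 1.03 elsewhere. Xist, transcribed from the inactive X chromosome of females, was at 516 to 585 TPM in 6 libraries and at 2.82, 2.08 and 3.16 TPM in Cre/+ 3, Cre/Cre 1 and Cre/Cre 3, so that genotype and sex were not balanced. Rbpms itself was at 43.2, 38.4 and 43.4 TPM in the +/+ retinas, 31.3, 32.2 and 33.1 TPM in the Cre/+ retinas and 19.7, 19.1 and 24.2 TPM in the Cre/Cre retinas. The Rbpms levels of the 3 genotypes did not overlap, and limma on log2(TPM + 1), with Benjamini-Hochberg adjustment over 15198 genes, put Cre/Cre -0.96 log2 units from +/+ (adjusted p = 0.000581; -0.92 without Cre/Cre 1). The adjusted p was 0.0612 when limma was run with neither the trend nor the robust prior. The study also required a fold change of 2, which -0.96 log2 units falls short of. It reported no significant difference in Rbpms RNA and similar RBPMS staining among the genotypes. Of the markers that check the tissue, none of those fixed for Müller glia or RGCs was at 0 in any library.

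The pathway was expressed strongly. Of the 34 members, 8 were among the 100 genes with the highest mean TPM in these retinas and 21 among the first 1000. The fructose bisphosphate aldolase Aldoa ranked 10, the pyruvate kinase Pkm ranked 11 and the enolase Eno1 ranked 12 of all genes, followed among the members by Ldha (35), Tpi1 (51), Bsg (76), Pgk1 (92) and Pgam1 (95). All 34 together made up 2.28% of the TPM in the +/+ retinas. At the other end, the PDH kinase gene Pdk4 ran from 0.126 to 0.751 TPM across the libraries and was the member left out of the tests, which took genes with a mean of at least 1 TPM and so held 33 members.

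**Figure D1:**
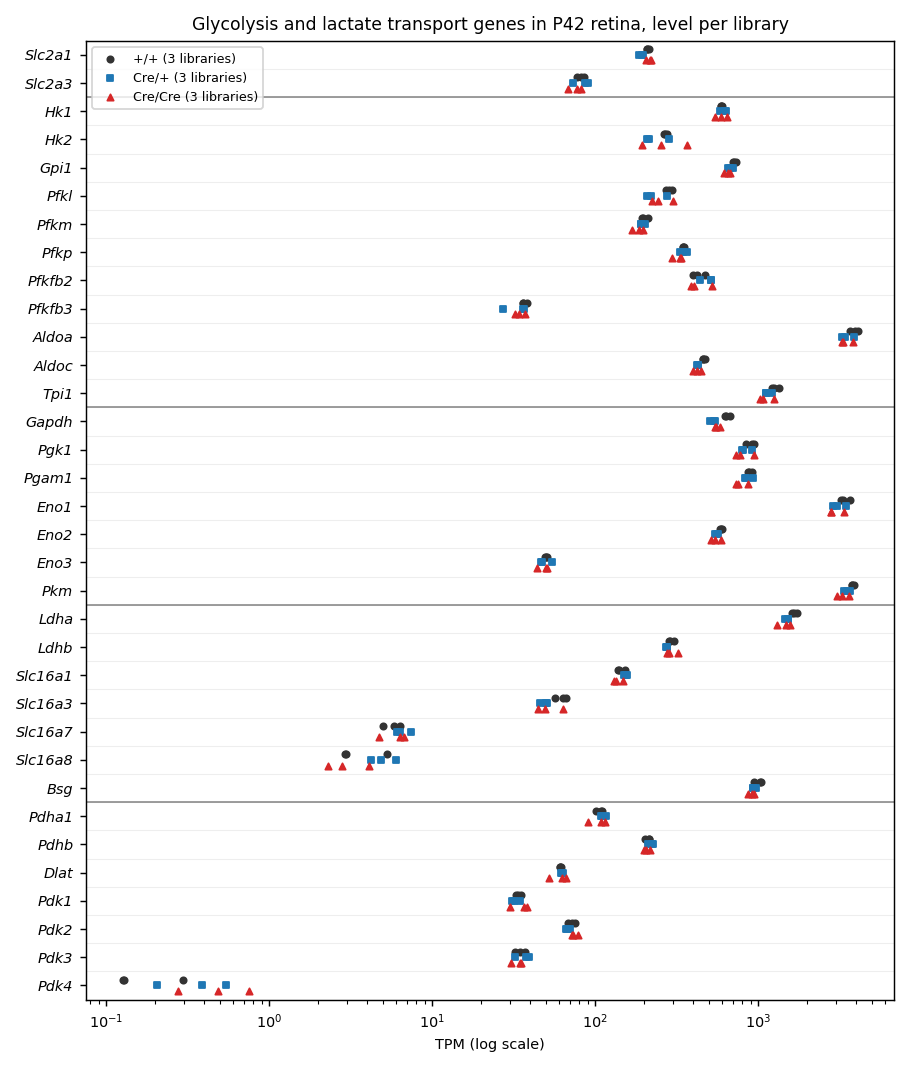
Level of each of the 34 members in each of the 9 libraries, in TPM on a log scale, with members in pathway order from glucose uptake (top) to the pyruvate dehydrogenase gate (bottom) and grey lines between the classes. Points are libraries; Aldoa, Eno1 and Pkm sit between 2812 and 4088 TPM and Pdk4 below 1 TPM, and for most members the 3 genotypes lie on top of each other.

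Glucose enters retinal cells through GLUT1, encoded by Slc2a1, and neuronal GLUT3, encoded by Slc2a3. Slc2a1 was read at 209, 216 and 209.7 TPM in the +/+ retinas, 185, 193 and 196 TPM in the Cre/+ retinas and 206, 222 and 217 TPM in the Cre/Cre retinas. The Cre/+ libraries were the 3 lowest of the 9. Slc2a3 ranged from 68.1 to 89.9 TPM with the genotypes overlapping, and GLUT1 took 68.5 to 75.1% of the pair's TPM.

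In upper glycolysis the ubiquitous hexokinase Hk1 was at 546 to 643 TPM and Hk2, the form known from photoreceptors, at 266, 271 and 278 TPM in the +/+ retinas, 286, 216 and 208 TPM in the Cre/+ retinas and 195, 368 and 256 TPM in the Cre/Cre retinas. Hk2 varied widely, and within Cre/Cre it ran from the lowest value of all 9 libraries (replicate 1) to the highest (replicate 2). Hk1 supplied 61.8 to 75.3% of the pair. Gpi1, the isomerase that follows, ranged from 616 to 737 TPM. The 3 phosphofructokinase subunit genes were all in use, with Pfkp at 40.2 to 46.2%, Pfkl at 28.0 to 36.1% and Pfkm at 23.4 to 25.8% of their summed TPM. Pfkfb2, whose product makes and breaks the phosphofructokinase activator fructose-2,6-bisphosphate, outweighed its relative Pfkfb3 in every library (91.3 to 94.2% of the pair).

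Aldoa was read at 3691, 4088 and 3937 TPM in the +/+ retinas, 3885, 3427 and 3298 TPM in the Cre/+ retinas and 3281, 3824 and 3314 TPM in the Cre/Cre retinas. These values overlapped between genotypes, with Cre/Cre 1 lowest and +/+ 2 highest. Aldoc, the brain form of aldolase, was at 461, 471 and 462 TPM in the +/+ retinas, 426, 426 and 425 TPM in the Cre/+ retinas and 401, 446 and 422 TPM in the Cre/Cre retinas, and both knock-in groups lay wholly below +/+ without overlap. Aldoa supplied 88.6 to 90.1% of the pair, and the triose phosphate isomerase gene Tpi1 ranged from 1032 to 1343 TPM.

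In lower glycolysis, Pgk1, which makes the first ATP that glycolysis returns, was at 732 to 945 TPM and the mutase gene Pgam1 at 735 to 930.5 TPM. Eno1 was read at 3216, 3665 and 3305 TPM in the +/+ retinas, 3451, 3052 and 2884 TPM in the Cre/+ retinas and 2812, 3394 and 2816 TPM in the Cre/Cre retinas, again overlapping between genotypes. It supplied 81.6 to 85.1% of enolase TPM, neuronal Eno2 13.5 to 17.1% and muscle Eno3 1.17 to 1.49%. Gapdh was read at 508 to 674 TPM, below Pgk1 and Tpi1 on either side of it in the chain, and the ratio of Aldoa to Gapdh was 5.84 to 7.17. Of the 50-base stretches of annotated Gapdh transcripts (GENCODE), 58.4% also occur in transcripts of other annotated genes, so its level here is uncertain, and so are those of Pgk1 (68.0%), Eno1 (49.5%) and Pgam1 (41.5%).

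At the lactate step, Ldha, whose subunit is the form typical of lactate-producing tissue, exceeded Ldhb in every library by a ratio of 4.79 to 5.83. The share of Ldha in the pair was 85.4, 85.1 and 84.9% in +/+, 84.5, 84.8 and 84.1% in Cre/+ and 82.7, 83.1 and 84.0% in Cre/Cre. The 3 genotypes did not overlap on this share, which does not depend on how libraries are scaled against each other, and the group means spanned 83.3 to 85.1%. This ordering was noticed after the values were seen and was not tested. Ldhb ran from 274 to 321 TPM. Among the transporters, Slc16a1 (MCT1) was at 131 to 156 TPM and supplied 64.5 to 72.3% of the TPM of the 4 lactate transporter genes, Slc16a3 (MCT4, a lactate exporter) 22.0 to 30.4%, Slc16a7 (MCT2) 2.38 to 3.59% and Slc16a8 (MCT3, the transporter of pigment epithelium) 1.04 to 2.78%. Bsg, the gene for basigin, stood 5.95 to 7.46 times as high as Slc16a1, at 874 to 1051 TPM.

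The pyruvate dehydrogenase genes were read at far lower levels than the lactate dehydrogenase gene Ldha, with Pdhb at 199 to 226 TPM, Pdha1 at 91.1 to 116 TPM and Dlat, which encodes the complex's acetyltransferase core, at 52.3 to 66.1 TPM. Of the kinases that inactivate the complex, Pdk2 supplied 48.6 to 54.0%, Pdk1 22.4 to 26.0%, Pdk3 23.0 to 28.6% and Pdk4, the form induced by fasting in other tissues, 0.0897 to 0.512% of their summed TPM.

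**Figure D2:**
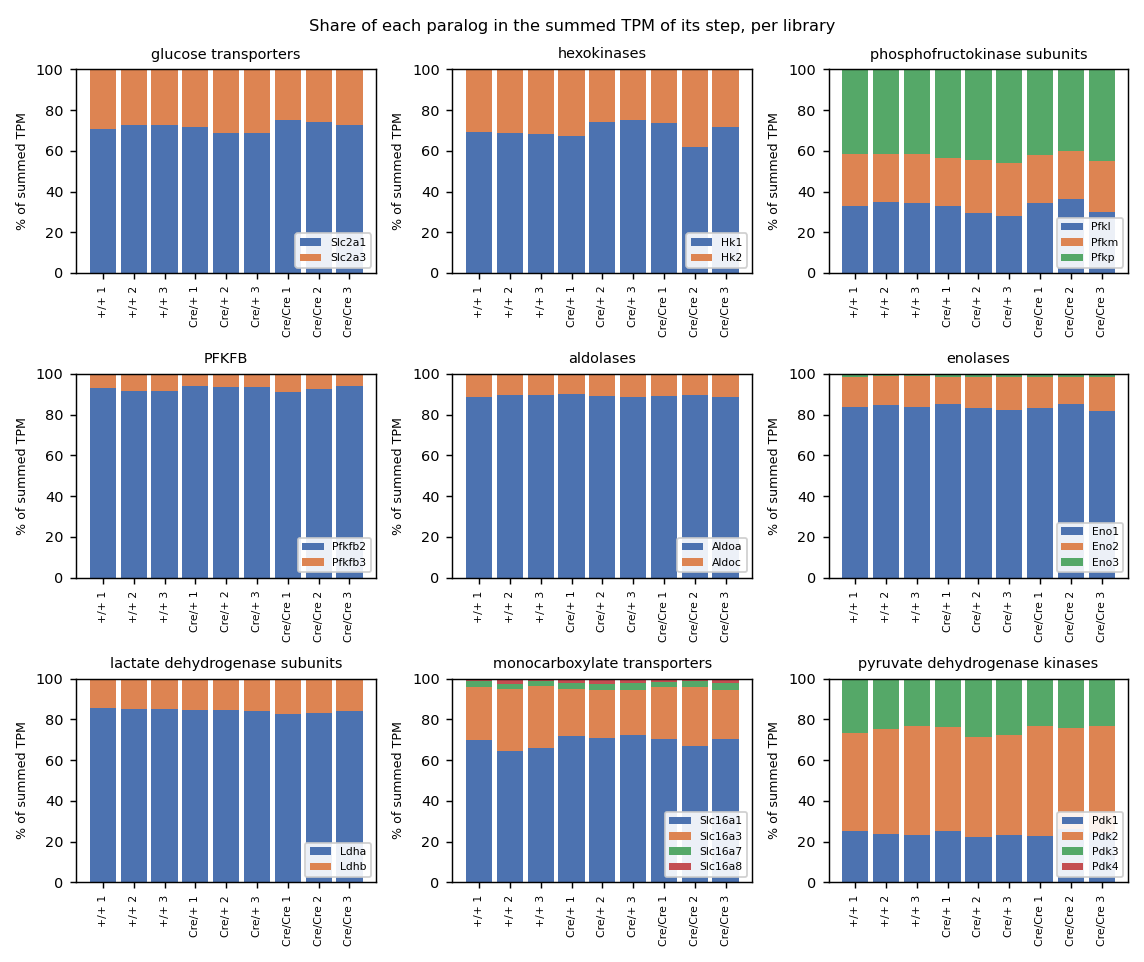
Share of each paralog in the summed TPM of its step, in percent, for 9 gene families (panels) in the 9 libraries (bars, 3 per genotype). The leading paralog was the same in every library for all 9 families; of the shares plotted, those of the hexokinases varied most, with Hk2 at 24.7% in Cre/+ 3 and 38.2% in Cre/Cre 2.

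With 1 copy of the knock-in, no member passed an adjusted p of 0.05 against +/+ (limma, 15198 genes tested, of which 0.00658% passed), and the smallest adjusted p among members was 0.319. At an unadjusted p under 0.05, 3 of 33 members were lower in Cre/+ and 0 were higher, while over all genes tested 5.82% were lower and 4.9% higher by that rule. All 3 Cre/+ libraries lay below all 3 +/+ libraries for 8 of 33 members (10.3% of all genes) and above them for 0 of 33 (11.9% of all genes). The median log2 fold change of the members was -0.08 and that of all genes 0.00, with 22 of 33 members, against 49.6% of all genes, below 0. The 8 members without overlap were Slc2a1, Aldoc, Gapdh, Eno2, Pkm, Ldha, Ldhb and Slc16a3.

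Gapdh, the dehydrogenase that opens the energy-yielding stretch of glycolysis, was read at 629, 633 and 674 TPM in the +/+ retinas, 542, 538 and 508 TPM in the Cre/+ retinas and 550.4, 581 and 544 TPM in the Cre/Cre retinas. Every knock-in library lay below every +/+ library. Its log2 fold change in Cre/+ was -0.29 (SE 0.0688, n = 3 against 3), with a 95% interval of -0.43 to -0.14 (limma, unadjusted p = 0.00076, adjusted p = 0.319). Slc16a3 was read at 56.7, 66.5 and 63.2 TPM in the +/+ retinas, 49.7, 51.0 and 45.8 TPM in the Cre/+ retinas and 49.4, 63.3 and 44.6 TPM in the Cre/Cre retinas. The Cre/+ libraries lay below those of +/+, whereas Cre/Cre 2 fell within the +/+ range. Its log2 fold change in Cre/+ was -0.34 (SE 0.110, n = 3 against 3), with an interval of -0.57 to -0.10 (limma, unadjusted p = 0.00795, adjusted p = 0.384). Pfkl, the liver-type phosphofructokinase subunit, was read at 274, 297 and 284 TPM in the +/+ retinas, 278, 222 and 209 TPM in the Cre/+ retinas and 242, 301 and 222 TPM in the Cre/Cre retinas. Only Cre/+ 2 and 3 lay below the +/+ libraries, while Cre/+ 1 overlapped them, and the log2 fold change was -0.28 (SE 0.119, n = 3 against 3) with an interval of -0.54 to -0.02 (limma, unadjusted p = 0.0354, adjusted p = 0.433).

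The count of 3 members changed with the libraries in the fit. It was 5 (4 lower, 1 higher) without Cre/+ 1, when 765 of all 15198 genes were lower and 659 higher by that rule. With all 9 libraries those counts over all genes were 884 and 744. Without Cre/Cre 1 it was 6, all lower (1146 and 1340 of all genes). Without Cre/Cre 3 it was 5 (4 lower, 1 higher), beside 947 and 935 of all genes. When the Cre/Cre libraries were left out altogether it was 10 (9 lower, 1 higher), beside 1184 and 1378 of all genes. The adjusted count was 0 in each. The fold changes of Gapdh and Slc16a3 in the libraries with Xist above 100 TPM (3 +/+ and 2 Cre/+) were -0.26 and -0.29. With the level of Xist as a covariate the median of the members was -0.05, against 0.01 for all genes.

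**Figure D3:**
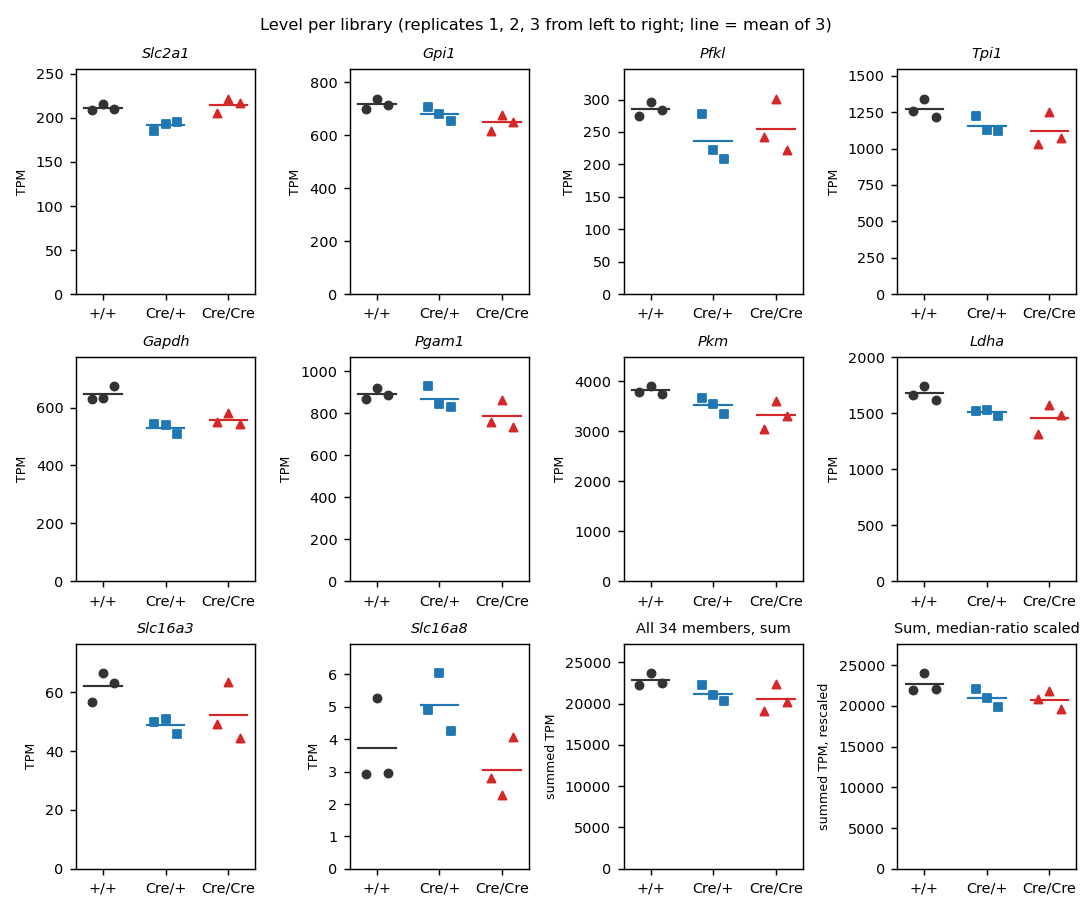
Level per library, in TPM with the axis from 0, of the 10 members with an unadjusted p under 0.05 in at least 1 comparison, and of the sum over all 34 members before and after median-ratio scaling. Points are libraries in the order of replicates 1 to 3 and lines the mean of 3; Gapdh lies below +/+ in all 6 knock-in libraries, while Cre/Cre 2 stands near the +/+ level for Pfkl, Slc16a3 and the sum.

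With both copies carrying the knock-in, again 0 of 33 members passed the adjusted p (limma, 0.00658% of all genes), the smallest being 0.594. At an unadjusted p under 0.05, 7 of 33 members were lower in Cre/Cre than in +/+ and 0 higher, while 5.39% of all genes were lower and 1.58% higher. All 3 Cre/Cre libraries lay below all +/+ libraries for 7 of 33 members (8.05% of all genes) and above them for 0 of 33 (2.7%). These 7 were Gpi1, Pfkp, Aldoc, Gapdh, Pgam1, Pkm and Ldha. The median log2 fold change was -0.11 for the members and -0.02 for all genes, and 28 of 33 members lay below 0 against 57.7% of all genes. The comparison shares its +/+ libraries with the preceding one.

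Pkm, which makes pyruvate and ATP in the last step of glycolysis, was read at 3786, 3906 and 3755 TPM in the +/+ retinas, 3671, 3539 and 3352 TPM in the Cre/+ retinas and 3044, 3609 and 3298 TPM in the Cre/Cre retinas. All Cre/Cre libraries lay below +/+, with Cre/Cre 1 the lowest, and the log2 fold change was -0.21 (SE 0.0724, n = 3 against 3) with an interval of -0.36 to -0.05 (limma, unadjusted p = 0.0119, adjusted p = 0.626). Ldha was read at 1664, 1742 and 1619 TPM in the +/+ retinas, 1518, 1532 and 1471 TPM in the Cre/+ retinas and 1315, 1575 and 1484 TPM in the Cre/Cre retinas. Both knock-in groups lay below +/+ without overlap, and the Cre/Cre fold change was -0.20 (SE 0.0744, n = 3 against 3) with an interval of -0.36 to -0.05 (limma, unadjusted p = 0.0148, adjusted p = 0.647). Gapdh, whose levels are given above, differed by -0.21 (SE 0.0688, n = 3 against 3) in this comparison (limma, unadjusted p = 0.008, adjusted p = 0.594).

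Tpi1, which interconverts the triose phosphates, was read at 1258, 1343 and 1216 TPM in the +/+ retinas, 1221, 1127 and 1124 TPM in the Cre/+ retinas and 1032, 1249 and 1074 TPM in the Cre/Cre retinas, with Cre/Cre 2 inside the +/+ range. Pgam1, which moves the phosphate of phosphoglycerate, was read at 867, 922 and 885 TPM in the +/+ retinas, 930.5, 845 and 828 TPM in the Cre/+ retinas and 757, 866 and 735 TPM in the Cre/Cre retinas, with Cre/Cre 2 just under the lowest +/+ library. Gpi1 was read at 699, 737 and 715 TPM in the +/+ retinas, 705, 678 and 652 TPM in the Cre/+ retinas and 616, 676 and 650.5 TPM in the Cre/Cre retinas, and the Cre/Cre libraries lay wholly below +/+. The log2 fold changes in Cre/Cre were -0.19 for Tpi1, -0.18 for Pgam1, -0.15 for Gpi1 and -0.25 for Slc16a3, with adjusted p-values of 0.673, 0.67, 0.715 and 0.695 (limma). Aldoa and Eno1, with Pkm the most abundant members, stood at -0.17 (interval -0.34 to 0.00) and -0.18 (interval -0.37 to 0.01). Neither reached an unadjusted p of 0.05 (limma, unadjusted p = 0.0502 and 0.0619).

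Library Cre/Cre 1 gave the lowest TPM of all 9 for 22 of the 34 members. Without it the median of the members was -0.07 against a median of 0.02 over all genes, 21 of 33 lay below 0 (43.8% of all genes), and 3 had an unadjusted p under 0.05, all lower (544 of all 15198 genes were lower by that rule). The fold changes without it were -0.20 for Gapdh, -0.15 for Pkm, -0.13 for Ldha, -0.16 for Pgam1, -0.13 for Tpi1, -0.11 for Gpi1 and -0.22 for Slc16a3. The count of 7, all lower (819 of all 15198 genes lower by that rule), became 14 without Cre/Cre 2 (1102) and 4 without Cre/Cre 3 (997). It became 2 without +/+ 2 (605 of all genes), 4 without +/+ 3 (525) and 0 with the level of Xist as a covariate (452). After median-ratio scaling of all 9 libraries, which brought the median of all genes to 0.00, the members' median was -0.08, 24 of 33 lay below 0 (49% of all genes) and 4 were lower at an unadjusted p under 0.05 (717 of all 15198 genes). With the level of Xist as a covariate the members' median was -0.05 against -0.01 for all genes, and the folds were -0.15 for Gapdh, -0.11 for Pkm, -0.13 for Ldha, -0.09 for Tpi1 and -0.08 for Pgam1. Among the 6 libraries with Xist above 100 TPM, Cre/Cre was represented only by Cre/Cre 2. In these the median of the members was -0.03 against 0.02 for all genes, and Slc16a3 and Pfkl stood at 0.03 and 0.08. The part of sex in the Cre/Cre values was not tested apart from these fits.

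**Figure D4:**
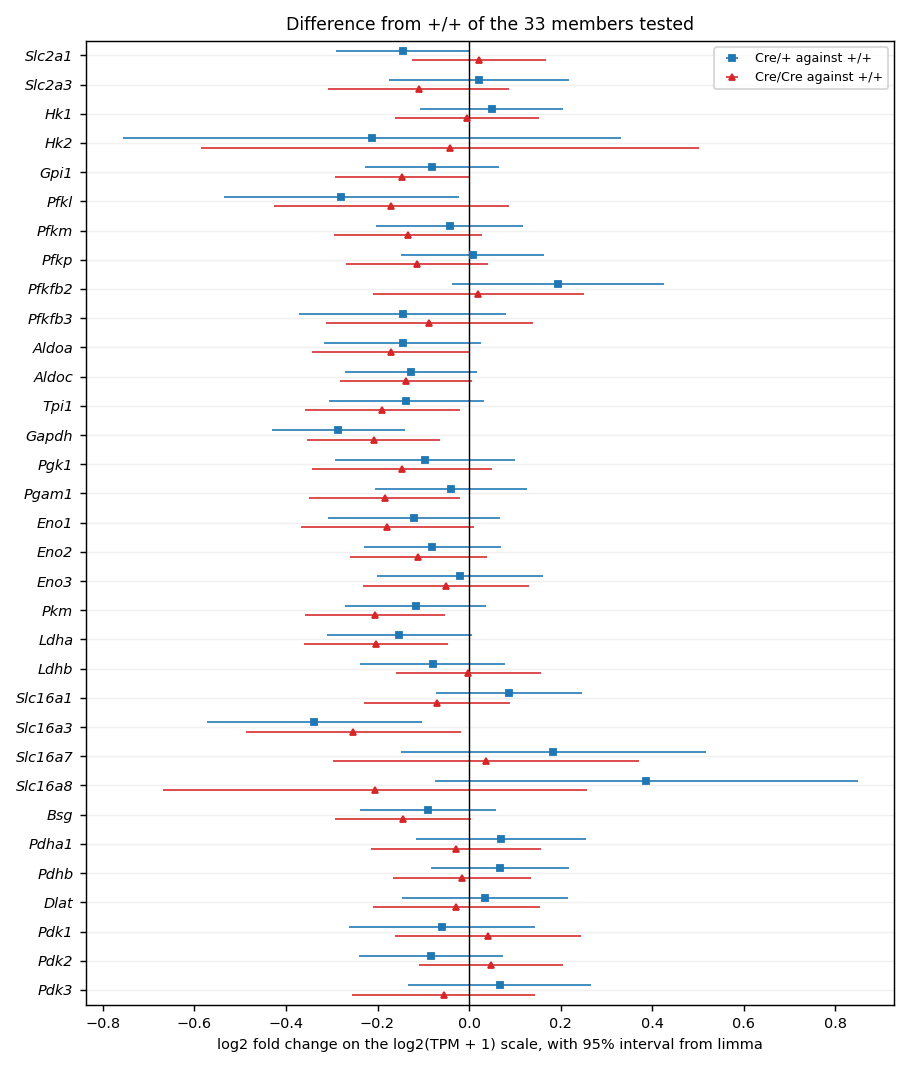
Log2 fold change of the 33 tested members against +/+, with 95% intervals from limma, for Cre/+ (squares) and Cre/Cre (triangles), in pathway order from top to bottom. Most points lie left of 0, the 7 members from Gapdh to Pkm do so in both comparisons, and the intervals of Gapdh and Slc16a3 exclude 0 in both before adjustment for the number of genes tested.

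Between the knock-in genotypes, 0 of 33 members passed the adjusted p (limma, 0.0132% of all genes), 1 was lower at an unadjusted p under 0.05 (4.2% of all genes) and 1 higher (2.38%). All Cre/Cre libraries lay below all Cre/+ libraries for 2 of 33 members, Slc16a1 and Slc16a8 (7.23% of all genes), and above them for 3 of 33, Slc2a1, Gapdh and Pdk2 (4.76%). Slc16a8 was read at 2.91, 5.29 and 2.96 TPM in the +/+ retinas, 4.89, 6.04 and 4.25 TPM in the Cre/+ retinas and 2.80, 2.28 and 4.08 TPM in the Cre/Cre retinas, and differed by -0.59 (SE 0.218, n = 3 against 3) with an interval of -1.05 to -0.13 (limma, unadjusted p = 0.0152, adjusted p = 0.74). Without Cre/Cre 1 the difference was -0.56, and its levels were near the lower limit for testing. The count of 2 members stood beside 638 lower and 362 higher of all 15198 genes. It became 0 without Cre/+ 2, beside 397 and 251 of all genes. Without Cre/Cre 1 it was 3, all higher in Cre/Cre, beside 261 lower and 494 higher of all genes. Markers of pigment epithelium, the tissue that expresses Slc16a8 most and can adhere to dissected retinas, summed over 7 genes to 17.2 to 47.9 TPM in +/+, 35.5 to 89.7 TPM in Cre/+ and 25.6 to 50.5 TPM in Cre/Cre; 4 of the 7 could be tested, all 4 lay below 0 in this comparison, 0 had an unadjusted p under 0.05, and Rpe65 ran from 1.03 to 11.6 TPM, with Mlana listed at 0 in at least 1 library. Their part in the Slc16a8 values was not tested. Slc2a1 differed by 0.16 (SE 0.0690, n = 3 against 3) with an interval of 0.02 to 0.31 (limma, unadjusted p = 0.0296, adjusted p = 0.74) and by 0.20 without Cre/Cre 1. The median of the members was -0.05 against -0.03 for all genes, and 0.00 against 0.02 without Cre/Cre 1.

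Arranged by role, the genes of lower glycolysis had the most uniform direction. All 7 of them, from Gapdh to Pkm, lay below 0 in both comparisons with +/+, with medians of -0.10 in Cre/+ and -0.18 in Cre/Cre. Gapdh, Pgk1, Pgam1, Eno1 and Pkm each share at least 10% of their sequence with other genes, whereas Eno2 and Eno3 do not. Pgam1 in Cre/+ did not keep its direction with Xist as a covariate (0.010). In upper glycolysis 8 of 11 genes lay below 0 in Cre/+ and 10 of 11 in Cre/Cre, with a median of -0.13 in both. Of the 7 genes of lactate production and transport, 4 and 6 lay below 0, with medians of -0.08 and -0.15. The tested genes of the pyruvate dehydrogenase gate lay on both sides, with 2 of 6 below 0 in Cre/+ and 4 of 6 in Cre/Cre and medians of 0.05 and -0.02. Without Cre/Cre 1, the Cre/Cre counts were 7 of 7 in lower glycolysis (median -0.13), 8 of 11 in upper glycolysis (-0.10), 5 of 7 at the lactate step (-0.11) and 0 of 6 at the gate (0.07), so that the 4 gate genes below 0 rested on that library. These counts describe the members and rest on the same +/+ libraries, and 49.6 and 57.7% of all genes lay below 0 in Cre/+ and Cre/Cre with all 9 libraries, and 43.8% in Cre/Cre without Cre/Cre 1.

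Summed over the 34 members, the level was 22289, 23660.3 and 22522 TPM in +/+, 22292, 21000.0 and 20337 TPM in Cre/+ and 19069, 22312 and 20172 TPM in Cre/Cre. Cre/+ 1 and Cre/Cre 2 stood just above the lowest +/+ library, and the other 4 knock-in libraries lay below it. The means were 22824 ± 734, 21209.7 ± 994 and 20518 ± 1649 TPM (SD, n = 3), so that Cre/+ stood at 92.9% and Cre/Cre at 89.9% of +/+. After division by each library's median ratio the percentages were 92.5 and 91.6%. The lowest sum, that of Cre/Cre 1, came to 20803 TPM on that scale and lay between those of the other 2 Cre/Cre libraries.

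In a bulk tissue, fewer cells of a type and less RNA per cell cannot be told apart, and markers of several cell types other than rods were therefore summed in the same libraries. The 5 cone markers came to 2332 to 2468 TPM in +/+, 2326 to 2432 TPM in Cre/+ and 2267 to 2522 TPM in Cre/Cre, with 3 of 5 below 0 in Cre/+ and 4 of 5 in Cre/Cre against +/+, where 1 was lower and 1 higher at an unadjusted p under 0.05. The 5 markers of bipolar cells came to 819.9 to 915 TPM in +/+, 863 to 885 TPM in Cre/+ and 678 to 856 TPM in Cre/Cre, and those of amacrine cells to 1542 to 1560.0 TPM in +/+, 1483 to 1557 TPM in Cre/+ and 1319 to 1499 TPM in Cre/Cre. For each of these 2 lists, 2 of 5 markers lay below 0 in Cre/+ and 5 of 5 in Cre/Cre, 1 of them at an unadjusted p under 0.05. The 5 markers of Müller glia came to 5365 to 5969 TPM in +/+, 5506 to 5709 TPM in Cre/+ and 4897 to 5713 TPM in Cre/Cre. Against +/+, 2 of 5 lay below 0 in Cre/+, 1 of them at an unadjusted p under 0.05, and 5 of 5 in Cre/Cre, 0 at that limit. Lens markers, which mark carry-over at dissection, reached 902 TPM in Cre/Cre 2, whereas the next highest library, Cre/Cre 1, stood at 201 TPM. The 6 RGC markers came to 1288 to 1327 TPM in +/+, 1222 to 1256 TPM in Cre/+ and 945 to 1129 TPM in Cre/Cre. Against +/+, 3 of 6 lay below 0 in Cre/+, 2 of them at an unadjusted p under 0.05. In Cre/Cre 6 of 6 lay below 0, 5 of them at that limit, and Rbpms was among them in both. Over all genes, 49.6% lay below 0 in Cre/+ and 57.7% in Cre/Cre, with 5.82 and 5.39% lower at that limit. Cre/Cre 1 gave the lowest Cre/Cre sum of the cone, bipolar, amacrine, Müller glia and RGC lists, in TPM that was not rescaled. Cre/Cre 2 and Cre/Cre 3 stood at 2522 and 2475 TPM for cones, 843 and 856 TPM for bipolar cells and 1499 and 1497 TPM for amacrine cells. For Müller glia they stood at 5713 and 5374 TPM, and for RGCs at 1129 and 1087 TPM. The marker counts above were taken with all 9 libraries. The study counted RGCs and the cells of each retinal layer under the microscope and reported no significant difference among the genotypes. The part of cell composition in the members' values was not tested.

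Another 60 genes of glucose metabolism, among them those of the pentose phosphate pathway, glycogen, the malate-aspartate shuttle, creatine kinases and regulators, were taken as a second list, of which 51 could be tested. None passed the adjusted p in any comparison (limma). At an unadjusted p under 0.05, 3 of 51 were lower and 3 higher in Cre/+ against +/+ (5.82 and 4.9% of all genes), and 3 lower and 0 higher in Cre/Cre against +/+ (5.39 and 1.58%). In Cre/Cre against Cre/+, 7 of 51 were lower and 0 higher (4.2 and 2.38% of all genes). The most abundant was Ckb, the brain creatine kinase, at 1918, 2103 and 2072 TPM in the +/+ retinas, 1735, 1763 and 1731 TPM in the Cre/+ retinas and 1675, 1840.2 and 1702 TPM in the Cre/Cre retinas. All knock-in libraries lay below all +/+ libraries, with log2 fold changes of -0.22 in Cre/+ and -0.22 in Cre/Cre (limma, adjusted p = 0.377 and 0.543). Next in level came the malate dehydrogenase gene Mdh1 (460.5 to 571 TPM), Hif1a (347 to 514 TPM), the aspartate aminotransferase gene Got1 (351 to 432 TPM) and Mdh2 (329 to 383 TPM).

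Beside Ckb, the smallest p-values of this list were those of Pygm, muscle glycogen phosphorylase (-0.20), and Rpe, an epimerase of the pentose phosphate pathway (0.25), in Cre/+ against +/+. In Cre/Cre against +/+ they were those of Ckmt1, a mitochondrial creatine kinase (-0.22), and of Emb (-0.25), which encodes embigin, a relative of basigin that also escorts lactate transporters. In Cre/Cre against Cre/+ they were those of Rpe (-0.36), Ckmt1 (-0.20) and Emb (-0.23). Hif1a, whose product is the oxygen-regulated subunit of the factor that reads the promoter core shown above, was read at 460.4, 436 and 381 TPM in the +/+ retinas, 499.9, 502 and 514 TPM in the Cre/+ retinas and 347, 452 and 494 TPM in the Cre/Cre retinas. Its Cre/+ libraries lay above those of +/+ (0.25 with an interval of 0.01 to 0.49, limma, adjusted p = 0.45), and its Cre/Cre libraries overlapped those of +/+ and lay below those of Cre/+.

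Several members share sequence with other genes, and a read from such a stretch could be assigned to either. By exact matches of 50 bases among annotated transcripts, 12 members shared at least 10% of their sequence with other genes combined. The other 22 shared less. Matches on either strand were counted. No single gene shared more than 3.87% with Ldha, and Pfkp and Pdha1 shared most with the opposite-strand genes Pitrm1 and Map3k15. Among the 12, Eno1 shared most with Eno1b, a separately listed copy, at 183 to 239 TPM, and the ratio of Eno1 to Eno1b stayed at 14.6 to 15.5. Of the named members, Pkm (23.7%), Gpi1 (24.5%) and Ldha (10.4%) also belong to the 12, whereas Slc16a3, Slc16a8, Slc2a1, Pfkl and Tpi1 do not. Among the 21 tested members with less shared sequence, 2 were lower and 0 higher in Cre/Cre against +/+ at an unadjusted p under 0.05. Over all genes, 5.39% were lower and 1.58% higher by that rule. Pfkp, Pfkm, Hk1, Pfkfb2, Tpi1, Bsg and Pdha1 overlap a gene on the opposite strand, which was at most 28.8 TPM. The library kit kept strand, but whether quantification used it is not given in the sources used here.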

How the data were processed

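Members and gene lists were chosen with earlier results of these data known. Per the labels and the study's methods, the authors trimmed strand-specific poly(A)-selected reads with Trimmomatic, checked them with FastQC, aligned them to mm10 with HISAT2, sorted with SAMtools and quantified genes with StringTie (versions not given in the sources used here), and tested with DESeq2. The deposited tables hold coverage, FPKM and TPM per gene as StringTie gave them, with no counts, so DESeq2 could not be repeated and depth was taken as the ratio of deposited coverage to FPKM. Rows with the same gene symbol were summed (162 to 200 symbols per library, 0 members). Genes with a mean of at least 1 TPM (15198) were tested on log2(TPM + 1), so fold changes of low genes are understated, by limma 3.58.1 in R 4.3.3 with trend and robust priors, all 9 libraries in 1 model, and Benjamini-Hochberg adjustment over all genes. Members named with folds were those with an unadjusted p under 0.05 in any comparison, and Aldoa and Eno1 for their level. Of the 60 further pathway genes, the 5 highest and the 3 smallest p-values per comparison were named. The code was tested on simulated data. Median-ratio scaling divided each library by its median ratio to the gene-wise geometric mean. Alternatives were pseudocount, filter, scaling, FPKM, libraries in the fit, replicate block, Xist covariate, priors and leaving out each library. Promoters were RefSeq's (GRCm38.p6). Some items are not reported here.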

Additional observations from a re-analysis of the deposited data

How the results depend on the processing

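No member passed the adjusted p in any of the 3 comparisons under any alternative run (limma). Of 324 fits of the 18 named member differences under alternatives, 320 kept their direction and 4 reversed: with Xist as a covariate, Pfkl in Cre/Cre against +/+ (0.036) and Pgam1 in Cre/+ against +/+ (0.010), and in the 6 libraries with Xist above 100 TPM, Pfkl (0.081) and Slc16a3 (0.031) in Cre/Cre against +/+. Several alternatives leave a fold change as it is by construction, so those fits could not reverse it. These were no filter, other priors, the replicate block, only the genotypes compared, and leaving out a library of the genotype not compared. The count of members with an unadjusted p under 0.05 was less stable, and the count over all genes also changed between fits. In Cre/+ against +/+ it was 3, all lower, beside 884 lower and 744 higher of all 15198 genes. It moved to 5, all lower, with no filter (1055 and 834 of 20504 genes) and with median-ratio scaling (1189 and 1225). With only the genotypes compared it was 10, of which 9 were lower (1184 and 1378 of all genes). Leaving out each library gave 2 to 6, beside 438 to 1146 genes lower and 345 to 1340 higher. In Cre/Cre against +/+ it was 7, beside 819 lower and 240 higher of all genes, and every member counted in the fits listed here was lower. It moved to 4 with median-ratio scaling (717 and 556 of all genes) and 4 with only the genotypes compared (635 and 218). It was 0 with Xist as a covariate (452 and 337) and 3 with neither trend nor robust prior (761 and 299). Among members with under 10% shared sequence, of which fewer were tested, it was 2. Leaving out each library gave 2 to 14, beside 525 to 1102 genes lower and 151 to 896 higher. In Cre/Cre against Cre/+ it was 2, 1 lower and 1 higher, beside 638 and 362 of all genes. It moved to 1, lower, with FPKM (574 and 215 of all genes) and with only the genotypes compared (501 and 338). With Xist as a covariate it was 4, 1 lower and 3 higher (471 and 446). Leaving out each library gave 0 to 3, beside 261 to 1518 genes lower and 251 to 494 higher. With Xist as a covariate the members' median was -0.047 in Cre/+ against +/+ and -0.052 in Cre/Cre against +/+, from -0.080 and -0.111. Over the alternatives other than leaving out a library, the Cre/Cre against +/+ folds ran from -0.257 to -0.080 for Pkm, -0.255 to -0.088 for Ldha, -0.241 to -0.025 for Tpi1 and -0.236 to -0.042 for Pgam1. The members' median moved, in the 6 Xist-high libraries, to -0.025 in Cre/Cre against +/+ and 0.040 in Cre/Cre against Cre/+, where Cre/Cre 2 stands alone and is assumed to vary like the other groups; the cause was not tested. Summed over the members, FPKM gave 6707, 6120.2 and 5826 in +/+, Cre/+ and Cre/Cre, a change of unit. The Xist-high and shared-sequence alternatives were chosen after seeing the data. With the replicate number as a block the counts remained 3, 7 and 2. Over all genes, 860, 796 and 587 were then lower and 636, 220 and 343 higher. The block changed no member's call. Correlations of deviations between same-numbered libraries ran from -0.12 to 0.13, and between differently numbered ones from -0.19 to 0.26. Whether the numbers pair the libraries cannot be told from these, since each deviation is taken from a mean of only 3 libraries. Depth in reads is unknown, since the tables hold no counts, so no counting intervals are given.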

Other observations

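Beyond the 4 lactate transporters, the family table held a gene at a higher level than any of them, noticed after its values were seen. Slc16a6, which encodes a transporter linked to ketone bodies, was at 187 to 213 TPM in the 9 libraries, above Slc16a1 in each by a ratio of 1.27 to 1.61. Slc16a11 (11.8 to 19.6 TPM) and Slc16a4 (7.88 to 14.1 TPM) stayed far lower. Among the glucose transporter family, Slc2a13 (18.9 to 29.5 TPM) and Slc2a8 (14.7 to 26.0 TPM) followed Slc2a1 and Slc2a3, insulin-responsive Slc2a4 was at 0.348 to 1.42 TPM, and Slc2a7 was listed at 0 in all 9 libraries.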
